A study of Bos taurus with 15 samples.

Results

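The 10 genes described here carry glucose into the cell and along glycolysis to lactate. They are the glucose transporter SLC2A1, the enzymes HK2, PFKP, ALDOA, TPI1, PGK1, PGAM1, ENO1 and LDHA, and the kinase PDK1, and they were taken by symbol from a table of 38001 bovine genes. Of these, 9 were found under their exact symbol. PGK1 was not, because the table carries its row (ENSBTAG00000000894) as "PGK 1.00", one of 47 symbols that had been turned into currency amounts, and the repaired symbol was used. All 10 had enough counts to be tested.

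RNA came from bovine meniscal fibrochondrocytes, the matrix-forming cells of the knee meniscus, embedded in collagen and sampled at day 28. The 5 groups, with 3 libraries each, were the post region and the middle region of tissue cast in a mold with post anchors (anchored post, anchored middle), the same regions of tissue cast without anchors (unanchored post, unanchored middle), and cell-laden collagen that was given no mold (no mold, called blobs by the submitters). All groups had 3 days in growth medium with 10% fetal bovine serum. They then had 25 days in a chondrogenic medium with ITS-X, non-essential amino acids, 50 µg/ml ascorbic acid, 1e-07 M dexamethasone and 10 ng/ml TGF-β3. Whether replicates are separate tissues, and whether animals were pooled, is not stated in the labels, so each p-value reflects library-to-library spread that could be technical.

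In glycolysis, glucose enters through facilitative transporters, is trapped by phosphorylation, is split into a pair of three-carbon sugars and is oxidised to pyruvate with a net yield of ATP. Lactate dehydrogenase turns pyruvate into lactate and regenerates the NAD+ that the pathway consumes, while pyruvate dehydrogenase kinases inhibit the mitochondrial complex that turns pyruvate into acetyl-CoA. Cartilage and the inner meniscus have little blood supply, and their cells are known to rely heavily on this route. Many genes of the pathway are known targets of the hypoxia-inducible factor HIF-1.

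Depth ranged from 2060781 to 7415701 counts per library. The 3 shallowest libraries were no mold 1 (2060781), no mold 3 (2128257) and anchored middle 2 (2986944), and the next was no mold 2 with 4466562. The cultures had the RNA of fibrochondrocytes, with 12 of 12 listed markers tested and a summed level of 29600 to 47000 CPM (counts scaled to 1e+06 per library). Compared with no mold, the average of the 4 molded groups had 5 of the 12 lower and 2 higher (edgeR adjusted p below 0.05). Of all genes tested, 7.91% were lower and 8.04% higher. Among the lower were the cartilage markers COL2A1 and SOX9 (log2 fold changes -3.24 and -0.79, edgeR adjusted p = 1.59e-08 and 5.86e-07). The higher were DCN (0.85, edgeR adjusted p = 8.34e-07) and THY1 (0.83, 1.11e-05). Endothelial markers summed to 0.674 to 2.00 CPM with 0 of 6 tested, and the red cell genes ALAS2 and SLC4A1 were at 0 in all libraries. The hemoglobin gene HBM was lower in molded tissue (-3.12, edgeR adjusted p = 0.000827), with 55 counts in all and 67.3% of them in values that are not whole. HBB, the other red cell gene tested, did not pass (-0.56, adjusted p = 0.676). The 5 red cell rows summed to 0.895 to 6.70 CPM in molded libraries against 3.29 to 7.76 CPM in no-mold libraries. Leukocyte markers summed to 5.00 to 8.70 CPM in molded libraries against 4.70 to 9.22 CPM in no-mold libraries, with 1 of 7 tested. Muscle markers summed to 10.7 to 20.8 against 14.3 to 24.3 CPM, with 2 of 7 rows tested and MYH2 at 0. Of the adipocyte markers, FABP4 was higher in molded tissue (0.58), LEP had 1 count in all, and the rows summed to 302 to 519 against 223 to 260 CPM. Schwann cell markers summed to 333 to 437 against 409 to 436 CPM, nearly all S100B, while SOX10 had 1 count. The part of other cell types in the results below was not tested.

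Molded tissue held less RNA of the transporter and of several glycolytic enzymes than collagen without a mold. When the 4 molded groups were averaged and set against no mold, 6 of the 10 genes were lower and 0 were higher by edgeR's quasi-likelihood test (adjusted p below 0.05 over 11834 genes), where 7.91% of all genes tested were lower and 8.04% higher. Those 6 were SLC2A1, PFKP, PGK1, PGAM1, LDHA and PDK1, with log2 fold changes between -0.54 and -0.48. The other 4, HK2, ALDOA, TPI1 and ENO1, did not pass and had values of -0.18 to -0.06. The median of the 10 was -0.49, and that of all genes tested was 0. In bulk tissue, fewer cells of a type and less RNA per cell cannot be told apart.

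Uptake and the first steps come first along the pathway. SLC2A1 (GLUT1, ENSBTAG00000009617) is the widely expressed facilitative glucose transporter. Its TMM-normalised CPM in libraries 1, 2 and 3 was 81.8, 84.4 and 91.6 in anchored post, 83.7, 104.9 and 73.4 in anchored middle, 86.6, 85.2 and 77.8 in unanchored post, 96.9, 91.7 and 77.6 in unanchored middle, and 109.9, 120.7 and 128.5 in no mold. All 12 molded libraries lay below all 3 no-mold libraries, a separation that 4.29% of genes tested showed in this direction. SLC2A1 fell by 0.48 on the log2 scale in molded tissue (SE 0.0936, edgeR adjusted p = 0.00119), and the 4 molded group means, 83.2 to 88.7, lay within their libraries' spread of each other.

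HK2 (ENSBTAG00000013108), the inducible hexokinase that phosphorylates glucose, was scarce. It had 134 counts over the 15 libraries, 2 to 18 in any one, and group means of 2.05 ± 0.293 (anchored post), 1.74 ± 0.552 (anchored middle), 1.38 ± 0.535 (unanchored post), 1.39 ± 0.328 (unanchored middle) and 1.60 ± 0.643 (no mold) (SD, n = 3 each). By library it had 1.77, 2.01 and 2.36 CPM in anchored post, 2.27, 1.8 and 1.17 in anchored middle, 1.8, 0.78 and 1.56 in unanchored post, 1.7, 1.42 and 1.05 in unanchored middle, and 1.01, 2.29 and 1.49 in no mold. Each molded group overlapped with no mold. At this depth no difference of HK2 was detectable (log2 fold change -0.11, SE 0.383, edgeR adjusted p = 0.887).

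PFKP (ENSBTAG00000002683) is the platelet-type isozyme of phosphofructokinase, which catalyses the committed step of glycolysis. It had 26.4, 22.3 and 27.2 CPM in anchored post, 19.8, 27.7 and 25.0 in anchored middle, 21.3, 29.8 and 22 in unanchored post, 24.5, 27.0 and 20.9 in unanchored middle, and 32.9, 34.7 and 37.7 in no mold. As with SLC2A1, the molded and unmolded libraries did not overlap. PFKP fell by 0.53 in molded tissue (SE 0.127, edgeR adjusted p = 0.00594).

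ALDOA and TPI1, which cleave fructose bisphosphate and interconvert the resulting triose phosphates, stood out by 1 library. ALDOA (ENSBTAG00000012927) averaged 574.3 ± 32.8 CPM in anchored post, 697.3 ± 271 in anchored middle, 487.8 ± 35.0 in unanchored post, 540.5 ± 56.7 in unanchored middle and 644.7 ± 63.5 in no mold. By library it had 568, 609.7 and 545.1 CPM in anchored post, 505.2, 1006.9 and 579.8 in anchored middle, 490, 521.6 and 451.7 in unanchored post, 562.2, 583.1 and 476.1 in unanchored middle, and 660.8, 574.8 and 698.6 in no mold. The wide spread of anchored middle came from library 2, the highest of all 15. TPI1 (ENSBTAG00000019782) had 347, 409.3 and 291.2 CPM in anchored post, 279, 671.7 and 304.9 in anchored middle, 270.1, 305.3 and 243.8 in unanchored post, 264.7, 291.6 and 253.4 in unanchored middle, and 420.3, 309 and 366.2 in no mold. Neither gene passed the test against no mold with all 15 libraries (edgeR adjusted p = 0.39 for ALDOA and 0.522 for TPI1), and both fell without anchored middle 2 (log2 fold changes -0.26 and -0.30, adjusted p = 0.0207 and 0.026).

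**Figure D1:**
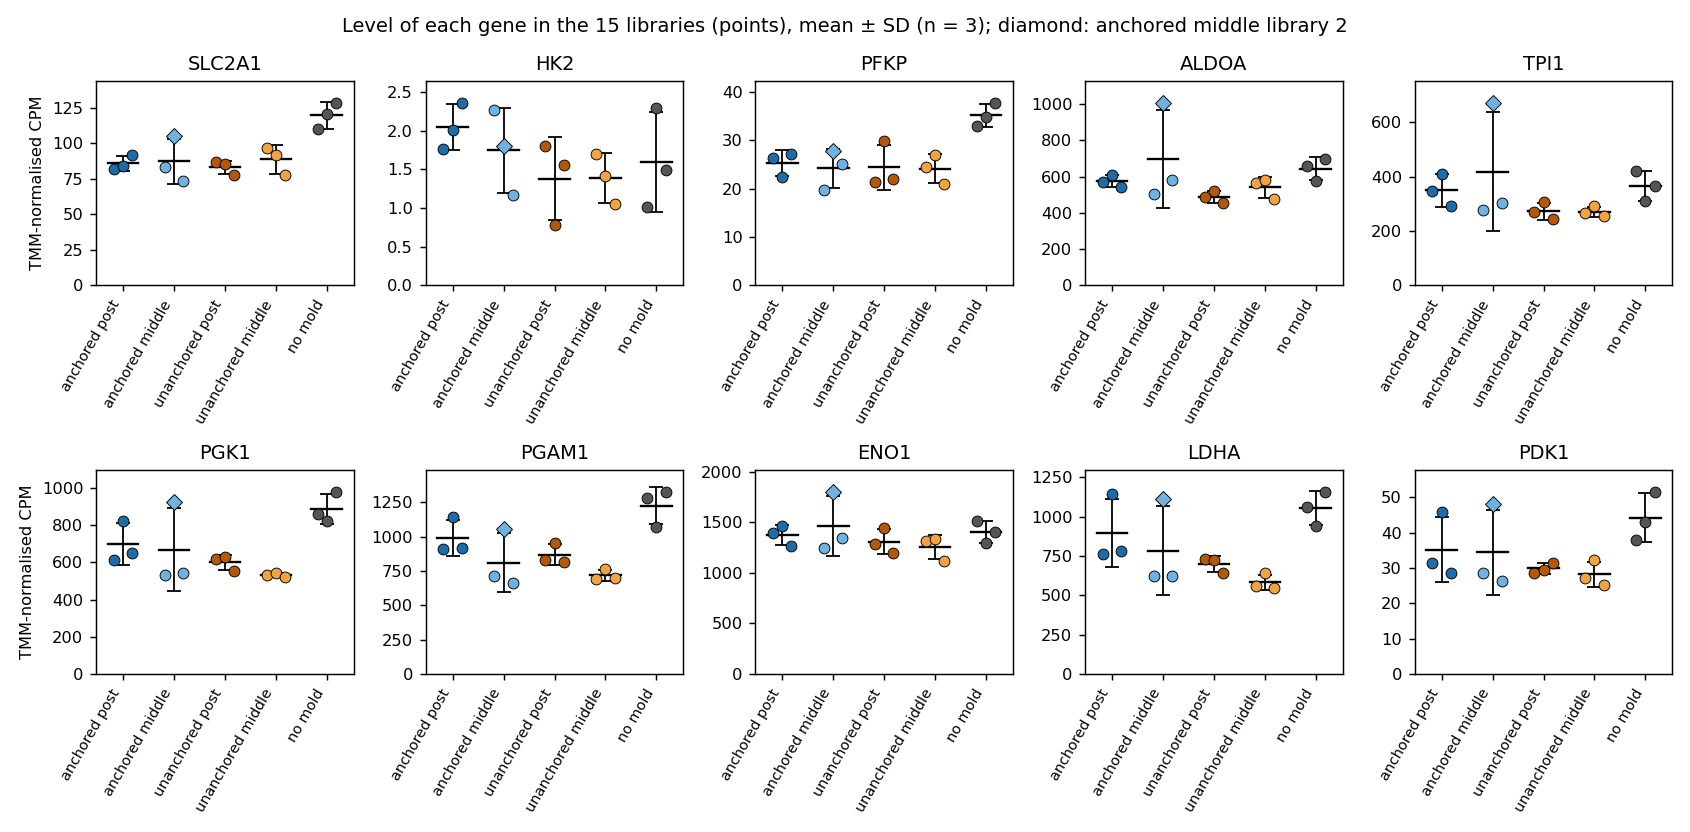
TMM-normalised CPM (vertical axes, from 0) of each of the 10 genes in the 15 libraries (points) by group (horizontal axes), with the mean and SD of 3 libraries as bars and anchored middle library 2 as a diamond. SLC2A1 and PFKP have all molded libraries below all no-mold libraries, and the diamond is the highest of all libraries in ALDOA (1006.9), TPI1 (671.7) and ENO1 (1801.5).

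The later steps start with PGK1, the first enzyme of the pathway that makes ATP. Its libraries had 613.1, 824.2 and 651.5 CPM in anchored post, 531.5, 924.3 and 545 in anchored middle, 616.6, 627.9 and 555.1 in unanchored post, 531.3, 542 and 523.9 in unanchored middle, and 858.7, 824.4 and 980 in no mold. Only anchored middle 2 among the molded libraries reached the no-mold range. PGK1 fell by 0.52 in molded tissue (SE 0.118, edgeR adjusted p = 0.00415), and 20.6% of its counts sat in values that are not whole.

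PGAM1 (ENSBTAG00000012697), the phosphoglycerate mutase, had 907.9, 1142.2 and 917.9 CPM in anchored post, 710.5, 1057.5 and 664.9 in anchored middle, 830.6, 956.4 and 818 in unanchored post, 694, 761.6 and 695.5 in unanchored middle, and 1280.5, 1069.6 and 1326.8 in no mold. Anchored post 2 lay above the lowest no-mold library and the other molded libraries below it. PGAM1 fell by 0.54 in molded tissue (SE 0.108, edgeR adjusted p = 0.00136). Of its counts, 86.3% sat in values that are not whole, as when reads are shared with a near-identical copy, so its level is uncertain.

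ENO1 (ENSBTAG00000013411), the enolase that makes phosphoenolpyruvate, had the smallest difference of the 10 genes. Its group means were 1374.2 ± 97.7 CPM in anchored post, 1465 ± 296 in anchored middle, 1306.4 ± 122 in unanchored post, 1252 ± 120 in unanchored middle and 1404.8 ± 108 in no mold. By library it had 1393.1, 1461.1 and 1268.4 CPM in anchored post, 1247.6, 1801.5 and 1345.8 in anchored middle, 1285.1, 1437.5 and 1196.6 in unanchored post, 1310.4, 1331.1 and 1114.5 in unanchored middle, and 1511.9, 1296.4 and 1406.2 in no mold. Each molded group overlapped with no mold. Its log2 fold change was -0.06 (SE 0.1, edgeR adjusted p = 0.75), and it was 0.01 without the 3 shallowest libraries.

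LDHA (ENSBTAG00000008683), which reduces pyruvate to lactate, had 763.4, 1146.7 and 783.5 CPM in anchored post, 622.4, 1110.7 and 621.1 in anchored middle, 730.7, 727 and 641.1 in unanchored post, 562, 639.5 and 548.9 in unanchored middle, and 1060.3, 941.9 and 1160.1 in no mold. Library 2 of each anchored group lay within the no-mold range and the other 10 molded libraries below it. LDHA fell by 0.53 (SE 0.134, edgeR adjusted p = 0.0088), and 93.8% of its reads were split in the same way. The order of its group means was no mold, anchored post, anchored middle, unanchored post and unanchored middle. Of the neighbours in that order that were compared, anchored post and no mold (adjusted p = 0.496), anchored post and anchored middle (0.664), and unanchored post and unanchored middle (0.524) did not pass edgeR's test, although the libraries of the last pair did not overlap.

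PDK1 (ENSBTAG00000016836), a pyruvate dehydrogenase kinase, had 31.3, 45.7 and 28.5 CPM in anchored post, 28.7, 48.1 and 26.4 in anchored middle, 28.6, 29.5 and 31.5 in unanchored post, 27.2, 32.2 and 25.1 in unanchored middle, and 38, 43 and 51.6 in no mold. The same pair of anchored libraries was high. PDK1 fell by 0.49 (SE 0.156, edgeR adjusted p = 0.0322), and this call was lost without no mold 2 and without no mold 3.

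How many genes passed depended on single libraries. Without anchored middle 2, 8 of the 10 were lower, against 9.86% of all genes. That library was left out after its high values were seen, and its removal by itself lowers the molded mean of these genes. Leaving out no mold 3 left 3, SLC2A1, PFKP and PGAM1, against 3.48% of all genes. With the 3 shallowest libraries left out, a setting added after the data were seen, 2 remained lower, SLC2A1 and PGK1, against 1.52% of all genes. That setting leaves 1 no-mold library, whose spread is then taken from the molded groups. SLC2A1 passed in every one of the 22 alternative settings, with log2 fold changes of -0.52 to -0.41.

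**Figure D2:**
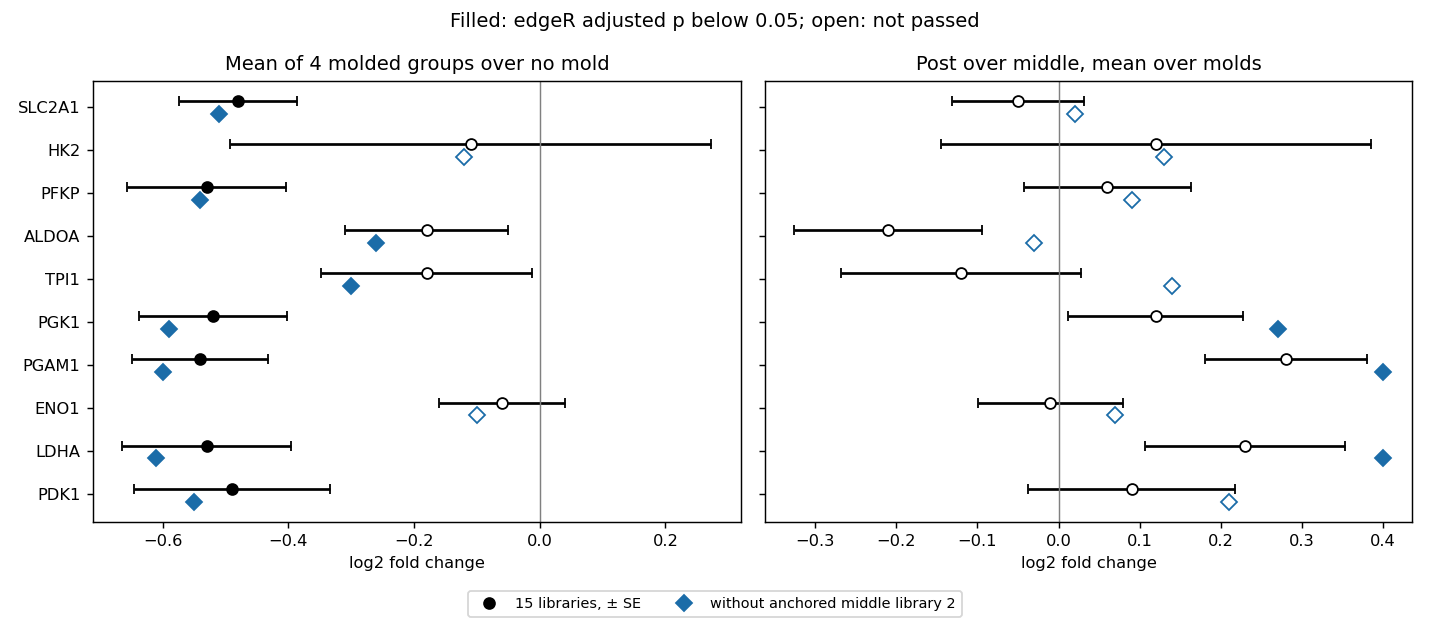
Log2 fold change (horizontal axes) of each gene (rows) for the mean of the 4 molded groups over no mold (left) and for post over middle averaged over molds (right). Circles with SE bars use all 15 libraries and diamonds leave out anchored middle library 2, and filled symbols passed edgeR's test, 6 and 8 genes on the left and 0 and 3 on the right.

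Each molded group was also set against the same 3 no-mold libraries, so these 4 comparisons are not independent. In unanchored middle, 6 of 10 genes were lower (7.20% of all genes were). In unanchored post 5 were (4.09%), in anchored middle 3 (6.20%) and in anchored post 1 (2.64%), and 0 were higher in any of the 4, where 2.92% of all genes were higher in anchored post, 7.11% in anchored middle, 4.93% in unanchored post and 7.56% in unanchored middle. SLC2A1 passed in all 4 groups, and PFKP in all except anchored post (log2 fold change -0.47, edgeR adjusted p = 0.0754).

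LDHA, PGAM1, PGK1 and PDK1 had wide gaps in unanchored middle. The later enzyme ENO1 did not (-0.17, SE 0.127, edgeR adjusted p = 0.424), and SLC2A1 and PFKP, from the start of the pathway, passed there too (-0.43 and -0.54). In unanchored middle LDHA fell by 0.85 (SE 0.176, edgeR adjusted p = 0.00227), PGAM1 by 0.77 (SE 0.142, 0.000843), PGK1 by 0.74 (SE 0.155, 0.00265) and PDK1 by 0.64 (SE 0.191, 0.0254). In anchored post the same genes had -0.23, -0.31, -0.35 and -0.33 and did not pass (adjusted p of at least 0.194). Without anchored middle 2, anchored middle had gaps of like size, with -0.76 for LDHA, -0.83 for PGAM1, -0.72 for PGK1 and -0.67 for PDK1. That unanchored middle and anchored post differ from each other was not tested directly.

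These counts also moved with single libraries. Without anchored middle 2, the count became 6 in anchored middle (7.91% of all genes), 8 in unanchored post (5.62%) and 2 in anchored post (3.89%). In unanchored post it was 1 without unanchored post 1 or 3 or without no mold 1 or 3. In unanchored middle it was 3 without unanchored middle 3 or without no mold 3, in anchored middle it was 1 without anchored middle 3 or without no mold 3, and in anchored post it was 0 without anchored post 1 or without no mold 2 or 3.

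**Figure D3:**
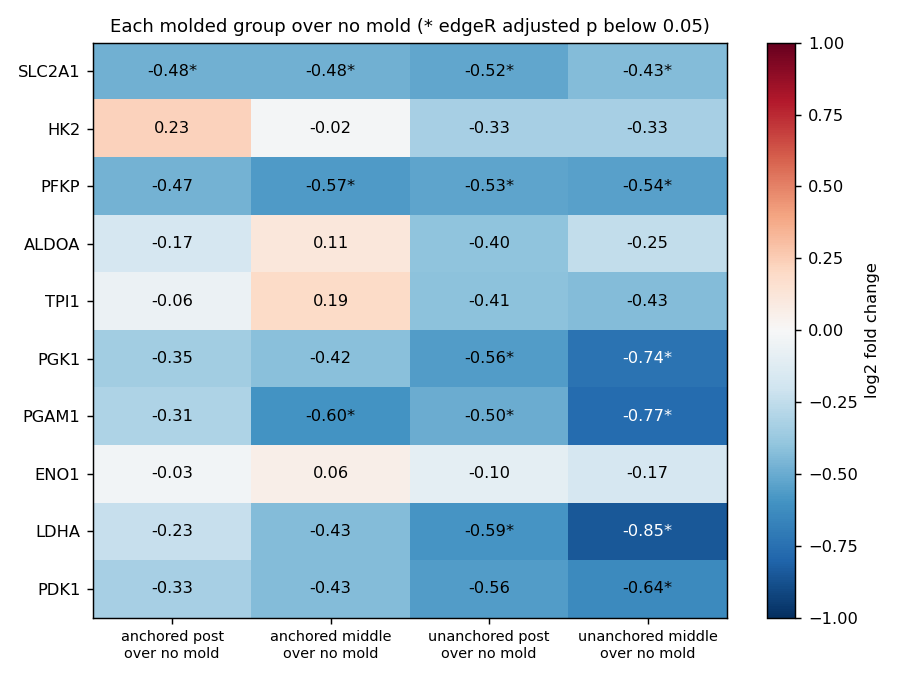
Log2 fold change (colour and number) of each gene (rows) in each molded group over the shared no-mold libraries (columns), with an asterisk where edgeR's adjusted p is below 0.05. SLC2A1 carries an asterisk in all 4 columns, and the lowest value is that of LDHA in unanchored middle (-0.85).

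The comparison of anchored with unanchored molds asked what the posts change. By edgeR 0 of the 10 genes and 0% of all genes tested passed, averaged over regions, in post or in middle tissue. Without a filter on low counts, edgeR called TPI1 (adjusted p = 1.23e-06) and LDHA (0.000638) averaged over regions, and TPI1 in middle tissue (9.17e-05). The share of all genes that passed in that fit is not given here, so these calls cannot be set against it. In the filtered fit, leaving out anchored middle 2 took TPI1 from 0.49 to 0.23 and LDHA from 0.39 to 0.23 averaged over regions (log2 fold changes). At an unadjusted p below 0.05, edgeR had 648 genes and DESeq2 427 averaged over regions, limma-voom had 650, and each of the 3 tools had 0 past the adjusted threshold.

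The 10 genes had a median log2 fold change of 0.24 averaged over regions, against 0.003 for all genes. TPI1 had the highest value (0.49, SE 0.149, edgeR adjusted p = 0.817), with 383.9 ± 149 CPM in anchored and 271.5 ± 23.2 in unanchored tissue (SD, n = 6 each). LDHA followed (0.39, SE 0.123, adjusted p = 0.817), with 841.3 ± 233 CPM in anchored and 641.5 ± 77.7 in unanchored tissue. SLC2A1 and PFKP had 0.00 and 0.01 (SE 0.0814 and 0.103). Without anchored middle 2 the median of the 10 was 0.11, with 8 values above 0 and 2 below.

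Within regions, anchored over unanchored post tissue had 0.36 for LDHA and 0.24 for ALDOA, and for both the libraries did not overlap, as was so for 4.99% of genes in this direction. In middle tissue the highest values were 0.62 for TPI1 and 0.42 for LDHA, where the libraries of the 2 groups overlapped for all 10 genes, while 3.76% of all genes separated upward and 3.79% downward. Without anchored middle 2 those values were 0.11 and 0.09, and the median of the 10 in middle tissue was 0.01. The interaction of anchoring and region passed for 0 of 10 genes and 0% of all genes by edgeR, with 223 genes at an unadjusted p below 0.05, and for 0 genes by DESeq2 and limma-voom (92 and 234 unadjusted).

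The comparison of post with middle tissue set the regions of a molded construct against each other. Averaged over molds, 0 of the 10 genes passed, where 8.51% of all genes did. PGAM1 came closest, with 928.8 ± 117 CPM in post and 764 ± 147 in middle tissue (SD, n = 6 each; log2 fold change 0.28, SE 0.0998, edgeR adjusted p = 0.0804). LDHA had 798.7 ± 177 and 684.1 ± 212 CPM (0.23, SE 0.123, adjusted p = 0.266), and PGK1 had 648.1 ± 91.9 and 599.7 ± 159 CPM (0.12, SE 0.108, adjusted p = 0.546).

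Without anchored middle 2, these 3 genes were higher in post tissue, where 3.94% of all genes were. Their log2 fold changes were 0.40 for PGAM1 (edgeR adjusted p = 0.00213), 0.40 for LDHA (0.00731) and 0.27 for PGK1 (0.0262). The libraries then did not overlap: PGAM1 had 818 to 1142.2 CPM in 6 post libraries and 664.9 to 761.6 in 5 middle libraries, as 2.98% of genes separated in this direction. LDHA had 641.1 to 1146.7 CPM in post and 548.9 to 639.5 in middle libraries. PGK1 had 555.1 to 824.2 CPM in post and 523.9 to 545 in middle libraries. Anchored middle 2 was left out after it was seen to be high in these genes, and its removal by itself raises post over middle. Anchored post 2, which had the highest post values of PGAM1, LDHA and PGK1 (1142.2, 1146.7 and 824.2 CPM), was kept. These calls and ranges therefore do not by themselves show a difference between regions.

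The unanchored libraries are among those compared above, so their lack of overlap for these 3 genes follows from those ranges and adds no support. In unanchored tissue alone, which anchored middle 2 does not touch, 10.1% of all genes separated in this direction. The log2 fold changes there were 0.28 for PGAM1, 0.26 for LDHA and 0.17 for PGK1. None of the 3 passed (edgeR adjusted p of at least 0.39), while 0.448% of all genes did. In anchored tissue 0 of 10 passed (1.92% of all genes did), and 2, PGAM1 and LDHA, were higher without anchored middle 2 (0.465% of all genes were). Those 2 calls have the same limit, as the library was left out for its high values. ALDOA and TPI1 had -0.21 and -0.12 averaged over molds with all libraries, and -0.03 and 0.14 without anchored middle 2.

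Anchored middle 2 stood apart in these genes. Its levels exceeded the mean of anchored middle 1 and 3 by 2.30 times for TPI1, 1.86 for ALDOA, 1.79 for LDHA, 1.75 for PDK1, 1.72 for PGK1, 1.54 for PGAM1, 1.39 for ENO1, 1.34 for SLC2A1, 1.24 for PFKP and 1.05 for HK2. The median gene of the 10 was 0.70 above its neighbours on the log2 scale, while the median of all genes was -0.004. Scaling holds that median near 0 in every library (-0.012 to 0.014), so it does not show whether other genes of this library were ordinary.

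The summed level of the 10 genes was 6755 CPM in anchored middle 2, the highest of the 15 libraries, and next came no mold 3 (6157) and no mold 1 (5974). These are also the 3 shallowest libraries. Anchored post 2, of ordinary depth (5663815 counts), had 5748, no mold 2 had 5217, and the other 10 libraries had 3737 to 4734. Mitochondrial messenger RNA made up 1.52% to 2.36% of counts in the molded libraries, with 1.77% in anchored middle 2, against 1.40%, 1.74% and 1.43% in no mold 1, 2 and 3, of which no mold 2 lay within the molded range. The part of depth in these results was not tested, and no mold and low depth cannot be told apart in 2 of the 3 no-mold libraries.

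**Figure D4:**
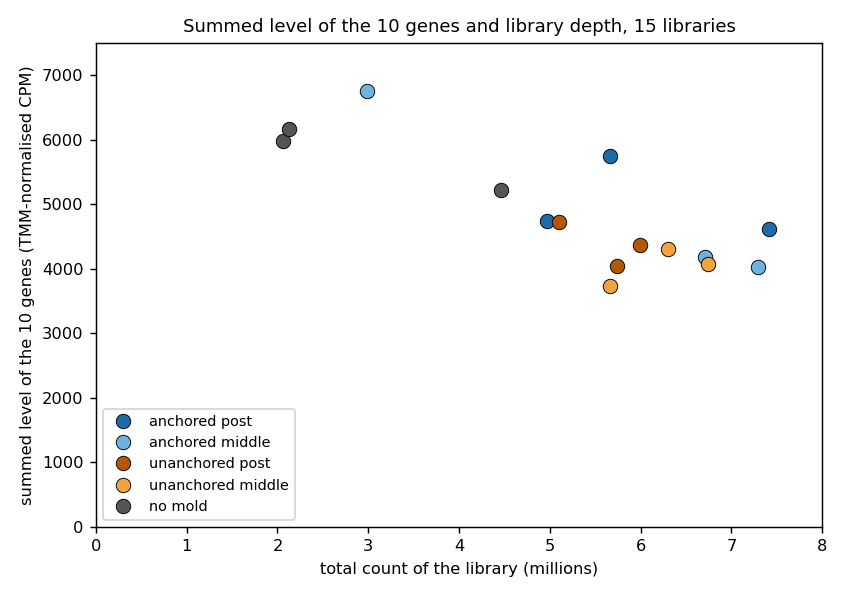
Summed TMM-normalised CPM of the 10 genes (vertical axis) against the total count in units of 1e+06 (horizontal axis) for the 15 libraries, coloured by group. The 3 libraries with the lowest totals, no mold 1 and 3 and anchored middle 2, have the 3 highest sums (5974, 6157 and 6755).

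Most of the 10 genes varied together across libraries, and HK2 followed the others least. Over the 15 libraries the median Pearson correlation of the log2 levels was 0.69 over the 45 pairs of genes, with values from -0.17 to 0.98. These points share library and depth, and the group means are part of them. Taken as deviations from group means, the median was 0.66, and it was 0.40 without anchored middle 2. PGK1, LDHA and PDK1 followed the mean of the other 9 genes at r = 0.95, 0.93 and 0.91, ENO1 and SLC2A1 at 0.74 each, PFKP at 0.63, and HK2 at 0.08.

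Other genes were ranked by how like their log2 level was to the mean of the 10 over the 15 libraries. The ranking took tested genes with a symbol and left out all genes of the pathway and marker lists used here. Highest in it were AK4 (r = 0.961), MIF (0.947), MT1E (0.923), MRPL45 (0.919), RPLP2 (0.916) and PRDX4 (0.913). AK4, a mitochondrial adenylate kinase, was lower in molded tissue (log2 fold change -0.92, SE 0.204, edgeR adjusted p = 0.00332), as were the cytokine MIF (-0.56, adjusted p = 0.0453), the metallothionein MT1E (-1.26, 4.2e-05), MRPL45 (-0.37, 0.0215) and RPLP2 (-0.46, 0.00885). PRDX4 had -0.34 and did not pass (0.0542). These genes were picked for following the mean of the 10, which was high in no mold. Their values against no mold follow in part from that choice and are not separate support. All counts of MT1E and 67.8% of those of AK4 sat in values that are not whole.

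Among the other enzymes of glycolysis, 16 of 23 listed had enough counts to be tested, and 2 were lower and 0 higher in molded tissue, where 7.91% of all genes were lower and 8.04% higher. The hexokinase HK1 had 43.1 ± 2.24 CPM in anchored post, 42.2 ± 8.60 in anchored middle, 34.5 ± 2.75 in unanchored post, 35.8 ± 2.47 in unanchored middle and 53.0 ± 4.56 in no mold (log2 fold change -0.46, SE 0.103, edgeR adjusted p = 0.00346). BPGM, which makes 2,3-bisphosphoglycerate, was the other (-0.42, adjusted p = 0.00442, 74.6% of counts not whole).

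The enzymes of the list that did not pass included GPI (-0.24, edgeR adjusted p = 0.175), PFKL (-0.57, 0.0849), PFKM (0.06, 0.849), ALDOC (-0.39, 0.0615), GAPDH (-0.39, 0.091), PKM (-0.30, 0.0825), ENO3 (-0.28, 0.362) and LDHB (0.05, 0.761). GAPDH, with all of its counts in values that are not whole, averaged 1594 ± 240 CPM in anchored post, 2081.2 ± 1010 in anchored middle, 1341.8 ± 85.4 in unanchored post, 1379.3 ± 100 in unanchored middle and 2056.4 ± 291 in no mold. ENO2, with 40 counts in all, was not tested. The median of the 16 was -0.26, and 7 of them were lower without anchored middle 2, where 9.86% of all genes were. BPGM did not pass without no mold 1 (adjusted p = 0.0645) or without the 3 shallowest libraries (0.243), which left HK1 alone in both settings.

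Of 11 tested transporters of glucose and lactate, 3 were lower and 1 higher in molded tissue, against 7.91% and 8.04% of all genes. SLC2A3 (GLUT3) had 10.7 ± 2.88 CPM in anchored post, 15.5 ± 7.19 in anchored middle, 7.68 ± 2.01 in unanchored post, 10.7 ± 4.12 in unanchored middle and 20.7 ± 2.62 in no mold (-0.94, SE 0.235, edgeR adjusted p = 0.00799). The lactate exporter SLC16A3 (MCT4) had -1.0 (adjusted p = 0.0185) and SLC2A6 -0.53 (0.0232). SLC16A7 (MCT2) was the one that was higher, at 1.70 to 1.93 CPM as molded group means against 0.41 CPM in no mold, where it had 1 count in each library. Without no mold 1 or without no mold 3, SLC16A3 and SLC2A6 did not pass. SLC2A3 did not pass without no mold 1 (edgeR adjusted p = 0.0558), nor SLC16A7 without no mold 2 (0.142), and of the 4 only SLC16A3 passed without the 3 shallowest libraries.

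At the entry of pyruvate into mitochondria, 2 of 13 tested genes were lower in molded tissue and 0 higher (7.91% and 8.04% of all genes). These were MPC1 and MPC2, the subunits of the mitochondrial pyruvate carrier (-0.30 and -0.43, edgeR adjusted p = 0.0464 and 0.00215). MPC1 did not pass without no mold 2 or without no mold 3 (adjusted p = 0.217 and 0.23), and neither passed without the 3 shallowest libraries (0.155 and 0.123). The other kinases had -0.21 (PDK2), -0.20 (PDK3) and -0.24 (PDK4) and did not pass. Of the PFKFB enzymes and TIGAR, which set the level of the phosphofructokinase activator fructose 2,6-bisphosphate, 0 of 4 tested passed, with PFKFB3 at -0.29 (adjusted p = 0.0772). In the pentose phosphate pathway 1 of 7 was lower, PGLS (-0.37, 0.00443), and it did not pass without the 3 shallowest libraries (0.18).

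Glycogen and gluconeogenesis genes had 4 of 9 lower and 0 higher, against 7.91% and 8.04% of all genes. They were GBE1 (-0.48), which branches glycogen, the phosphorylase PYGL (-0.38), PPP1R3C (-0.42), which targets a phosphatase to glycogen, and the mitochondrial PCK2 (-0.64), with edgeR adjusted p of 0.000533 to 0.0481. In the tricarboxylic acid cycle 1 of 19 was higher, FH (0.41, adjusted p = 0.00286), and 1 lower, SDHC (-0.44, 0.000559), with a median of -0.01, so neither share of this list was above that of all genes. FH did not pass without the 3 shallowest libraries (adjusted p = 0.151).

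Genes known to respond to hypoxia outside glycolysis had 8 of 16 tested lower and 2 higher in molded tissue, against 7.91% and 8.04% of all genes. NDRG1 had 203.6 ± 27.3 CPM in anchored post, 176.1 ± 26.1 in anchored middle, 182 ± 0.605 in unanchored post, 165 ± 4.61 in unanchored middle and 287.8 ± 32.0 in no mold (-0.66, SE 0.0862, edgeR adjusted p = 1.53e-05). The others lower were ADM (-1.06), ANKRD37 (-1.10), CA9 (-1.0), ANGPTL4 (-0.78), ERO1A (-0.77), MXI1 (-0.58) and VEGFA (-0.57), with adjusted p of 0.000229 to 0.0492. The collagen-modifying enzymes P4HA1 and PLOD2 were the 2 higher (0.34 and 0.28, adjusted p = 0.0196 and 0.0178). Among HIF subunits and oxygen sensors, 1 of 8 was higher, HIF1A (0.28, 0.0461), and 1 lower, the prolyl hydroxylase EGLN3 (-1.03, 0.012).

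These list counts moved with the no-mold libraries, and so did the calls over all genes. Of all genes, 7.91% were lower in molded tissue with all libraries and 3.48% without no mold 3. Without no mold 3, the hypoxia list had 3 lower and 0 higher, the glycogen list 1 lower, and HIF1A and EGLN3 did not pass (edgeR adjusted p = 0.261 and 0.125). Without no mold 1 the counts were 3 lower and 1 higher for hypoxia and 3 lower for glycogen. Without no mold 2 they were 7 lower and 2 higher for hypoxia and 4 lower for glycogen. The share of all genes in these 2 fits is not given here. Without anchored middle 2, where 9.86% of all genes were lower, the counts were 9 lower and 2 higher for hypoxia and 5 lower for glycogen. Without the 3 shallowest libraries they were 3 lower and 0 higher for hypoxia and 1 lower for glycogen.

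**Figure D5:**
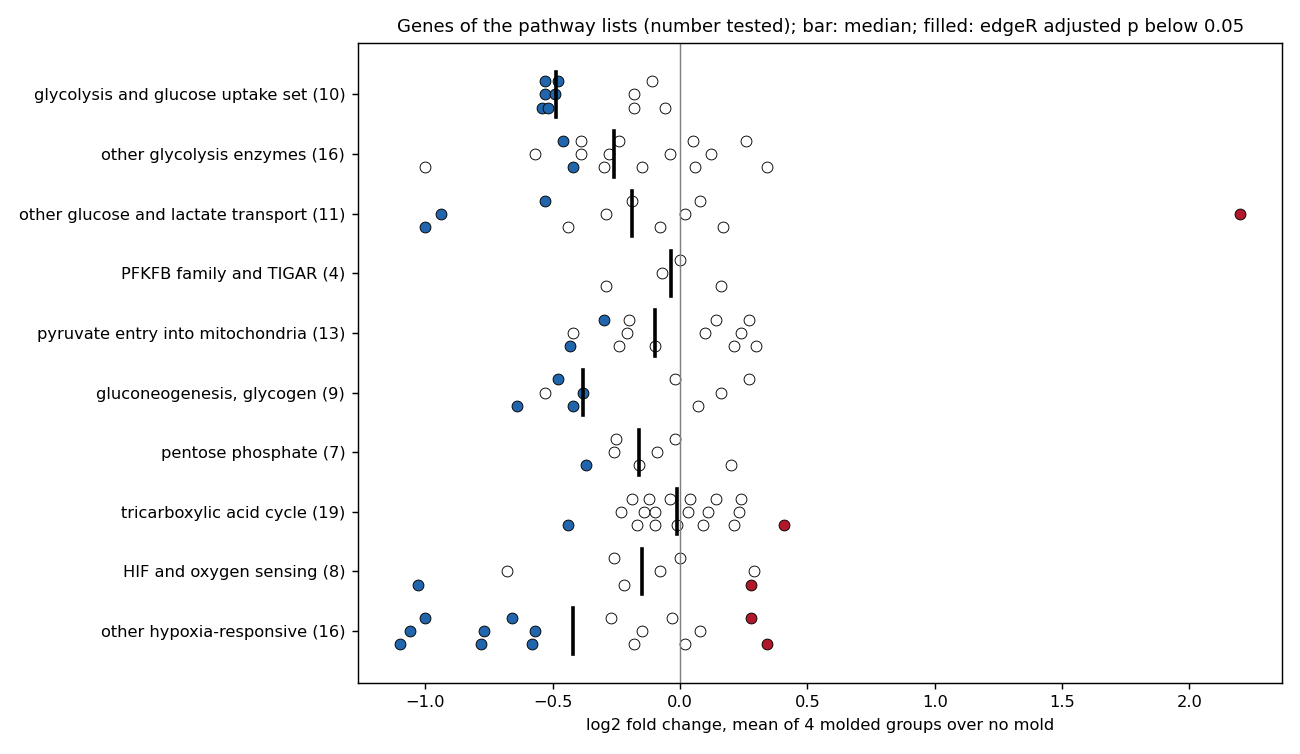
Log2 fold change of the mean of the 4 molded groups over no mold (horizontal axis) for each tested gene (points) of the 10-gene set and of the related lists (rows, with the number tested), with the median as a bar and filled points past edgeR's threshold. The 10-gene set has its median at -0.49, the tricarboxylic acid cycle at -0.01, and the point furthest right is SLC16A7 (2.20), which has 1 count in each no-mold library.

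Between regions, where 3.32% of all genes were higher and 5.19% lower in post than in middle tissue, 3 of 13 tested genes of pyruvate entry were higher, MPC1 (0.48, SE 0.0907, edgeR adjusted p = 0.00196), MPC2 (0.34, 0.00793) and PDHX (0.33, 0.0373). PDHX did not pass without anchored middle 2 (0.059) or without the 3 shallowest libraries (0.0528). SLC16A1 (0.23), GBE1 (0.25), PYGL (0.29) and SDHC (0.27) were also higher in post tissue, with adjusted p of 0.0153 to 0.0348. ANGPTL4 (-0.82), LOX (-0.61) and PLOD2 (-0.25) were lower, with adjusted p of 0.000935 to 0.0276. Of the other glycolysis enzymes 0 of 16 passed. Between anchored and unanchored tissue 0 genes of any of these lists passed.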

How the data were processed

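Polyadenylated RNA of 15 libraries (5 groups of 3) was primed with oligo-dT carrying a molecular identifier and tagmented, per the labels' protocols. The submitters' processing notes name the tools STAR 2.7, SAMtools 1.21, Subread 2.1.1 with featureCounts, and MultiQC 1.33. How identifiers and strand were handled, and which build and annotation were used, is not given in the sources used here. The table the authors deposited holds expected counts, of which 13.5% to 16.3% of the nonzero values are not whole (tolerance 1e-06), and CPM, which the authors deposited beside them and which was reproduced from the counts.

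Expected counts were rounded, 92 spike-in rows were left out, and genes were filtered with filterByExpr (count 10, total 15), which left 11834. All libraries entered 1 quasi-likelihood fit in edgeR 4.0.16 (R 4.3.3) with TMM factors, two-sided contrasts and Benjamini-Hochberg adjustment over all genes, threshold 0.05. Levels are TMM-normalised CPM, mean ± SD; the like-pattern genes used log2 CPM with a prior count of 2. Alternatives were RLE scaling, DESeq2 1.42.0, limma-voom 3.58.1, no filter, a replicate block, fits on the compared groups only and leaving out each library. Scaling by totals alone and leaving out the 3 shallowest libraries were added after the data were seen. Tests were tried on simulated data.

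The 10 genes and the lists were chosen with earlier results of these data known. From the related lists, a gene was named when it passed in molded against no mold or in post against middle, or when it encodes an isozyme or a step that the 10 lack. Examples singled out beyond that, and libraries left out by name, were chosen after their values were seen. No sequences or coordinates were used.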

Additional observations from a re-analysis of the deposited data

How the results depend on the processing

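Of the 10 genes, the number past the threshold in molded against no mold was 6 with all libraries, and it was 2 without the 3 shallowest libraries and 3 to 8 when 1 library was left out in turn. Against no mold, anchored post had 1, with 2 in a fit of the compared groups only, 0 without the 3 shallowest libraries and 0 to 2 with 1 library left out. Anchored middle had 3, with 5 without a filter on low counts and 1 to 6 with 1 library left out. Unanchored post had 5, with 8 without a filter, 8 in a fit of the compared groups only, 0 without the 3 shallowest libraries and 1 to 8 with 1 library left out. Unanchored middle had 6, with 3 without the 3 shallowest libraries and 3 to 7 with 1 library left out. Without a filter, anchored against unanchored called 2 genes averaged over regions (TPI1 and LDHA) and 1 in middle tissue, and post against middle called 2. Post against middle called 0 with all libraries, 1 when libraries were scaled by their totals alone, 3 without the 3 shallowest libraries and 0 to 3 with 1 library left out. In anchored tissue it called 0, with 1 without the 3 shallowest libraries and 0 to 2 with 1 library left out. The share of all genes is given in this report for only some of these settings, and calls over all genes moved too. These counts are therefore not read as particular to the 10 genes. The cause was not tested, apart from the fewer libraries that a left-out setting holds by construction.

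Over all genes, molded against no mold called 1888, with 856 without no mold 3 and 335 without the 3 shallowest libraries, and post against middle called 1007, with 465 without unanchored middle 2. No called gene of the 10 changed direction. Scaling by totals alone moved the median of all genes by at most 0.084. Over all pairs of groups, same-numbered libraries deviated together with a median r of 0.02, and differently numbered ones with -0.01. Between unanchored post and middle, same numbers had r of 0.09, 0.11 and 0.26, and different numbers -0.17 to 0.06. Between anchored post and middle, same numbers had -0.03, 0.08 and 0.14, and different numbers -0.16 to 0.06. Whether same-numbered post and middle libraries share a construct is not stated in the labels, and the main fit treats them as independent. With the replicate block, anchored middle against no mold called 5. Low depth limits HK2 (134 counts in all).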
